A study of Mus musculus with 13 samples.

Results

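The 10 genes described here are Chil3, Mpeg1, Ctss, Tyrobp, Laptm5, Fcer1g, Cd68, Csf1r, Cd52 and Coro1a, listed together as macrophage and pan-myeloid genes. They were chosen with their levels on these arrays known, so their levels and differences are given as a description. Where a fit over all genes called some of them, the count stands beside the share of all genes called and supports nothing. Each is represented by the probe set that carries its symbol alone and has the highest mean over all 13 arrays. They are 10 of 18193 genes with such a probe set, and all 10 are among the 12205 genes that passed a filter on low values. Of the 10, 5 passed that filter on arrays without blood cells and 5 passed it only through co-culture arrays.

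The arrays measured the mouse stromal cell line UG26-1B6, a single clone from the urogenital ridge of midgestation embryos, cultured alone or with LSK cells. LSK cells lack lineage markers, carry Sca-1 and Kit and are rich in haematopoietic stem and progenitor cells. The groups were stroma before co-culture (day 0, n = 3), stroma after 1, 2 and 3 days of co-culture with LSK cells (n = 3, 3 and 2) and stroma without LSK cells whose medium had been changed 24 h earlier (medium control, n = 2). The medium control was taken at 24 h only. In differences of days 2 and 3 from day 0, co-culture and time in culture cannot therefore be told apart. No genetic change is named for any group, and the sources used here give no strain for the LSK donors. The protocol, which is the same for all 5 groups, irradiates confluent stroma with 30 Gy before LSK cells are seeded. The sources used here do not say whether this also applied to day 0 and medium control stroma, or whether LSK cells were removed before RNA was taken. The titles call the replicates biological and the design text calls them technical, so the spread between arrays may be partly technical.

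Several of the 10 genes belong to signalling from the surface of myeloid cells. Csf1r encodes the receptor for the growth factors Csf1 and Il34, on which the survival of most macrophages depends, and stromal cells are a known source of Csf1. Tyrobp and Fcer1g encode small adaptors whose ITAM motifs recruit the kinase Syk when an activating receptor or an Fc receptor is engaged, and the transcription factor PU.1, encoded by Spi1, drives many myeloid genes.

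Promoter sequence is shown for 4 of the genes because their levels moved apart: Chil3, Ctss and Mpeg1 were much higher in co-culture at days 2 and 3, and Cd68 was close to its day 0 level until day 3. The sequences are RefSeq promoters of build GRCm38.p6, 5′ to 3′ on the strand of the gene, from 200 bases before to 25 bases after the annotated start. They lie at chr3:106167540-106167764 on the minus strand for Chil3, chr3:95526586-95526810 on the plus strand for Ctss, chr19:12460570-12460794 on the plus strand for Mpeg1 and chr11:69666146-69666370 on the minus strand for Cd68. Capitals mark the letters AGGAAG, a core that PU.1 and other ETS factors bind, or their reverse complement.
Chil3: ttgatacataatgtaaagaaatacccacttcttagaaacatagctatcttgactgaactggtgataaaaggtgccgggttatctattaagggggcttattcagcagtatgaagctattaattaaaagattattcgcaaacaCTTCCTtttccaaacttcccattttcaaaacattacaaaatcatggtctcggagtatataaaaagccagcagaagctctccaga
Ctss: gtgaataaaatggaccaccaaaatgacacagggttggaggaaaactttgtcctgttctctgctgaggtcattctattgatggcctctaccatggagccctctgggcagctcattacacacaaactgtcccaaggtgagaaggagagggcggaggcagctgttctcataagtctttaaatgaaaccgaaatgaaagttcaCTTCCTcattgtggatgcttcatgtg
Mpeg1: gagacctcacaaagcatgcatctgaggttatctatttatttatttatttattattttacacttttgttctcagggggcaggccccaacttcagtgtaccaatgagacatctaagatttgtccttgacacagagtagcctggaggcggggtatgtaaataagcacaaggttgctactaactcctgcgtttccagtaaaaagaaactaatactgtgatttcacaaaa
Cd68: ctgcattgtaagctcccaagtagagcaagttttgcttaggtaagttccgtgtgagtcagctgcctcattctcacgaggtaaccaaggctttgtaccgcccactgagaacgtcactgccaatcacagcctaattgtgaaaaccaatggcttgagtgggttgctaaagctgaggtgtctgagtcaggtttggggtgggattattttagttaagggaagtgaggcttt
In the full 300-base windows, which reach 250 bases before the start, AGGAAG was found on either strand for Chil3, Ctss, Fcer1g, Laptm5 and Coro1a, which is 5 of the 7 genes with a window here. These 7 genes have 8 windows, and for Coro1a not every window held the letters. The same letters were found in 35.4% of all 32851 windows, a count by window and not by gene. The longer GAGGAAGT, which contains AGGAAG, was found in 3.2% of all windows and, among the 7 genes, for Ctss alone, where it overlaps the start. Neither was found in the windows of Mpeg1 and Cd68. A match of letters is a description and shows no binding.

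Levels are log2 intensities as deposited. The lowest value in the table was 2.28, and a gene is said to lie at its lowest value in a group where all arrays of the group were within 0.25 of it. A difference from such a group is a lower bound. Levels are compared between arrays for each gene and not between genes. On 1 array, day 2 replicate 1, the correlation with any other array reached 0.785 at most, against 0.936 to 0.996 on the other 12. The gap between 3′ and 5′ probe sets of Gapdh was 8.96 there, against 5.79 on day 3 replicate 2 and 2.15 to 3.82 on the other 11, a gap that usually widens where RNA is degraded or amplified from little material. The day 2 differences of the 10 genes, and of other genes called at day 2, are given with and without day 2 replicate 1.

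The 10 genes together were higher in co-culture than in stroma alone. Their mean level per array was 3.06 to 3.35 at day 0, 3.94, 6.30 and 5.44 at day 1, 10.78, 6.87 and 6.93 at day 2, 7.78 and 8.89 at day 3, and 3.07 and 3.08 in the medium control. Every co-culture array lay above all 5 arrays without LSK cells. Chil3, Mpeg1, Tyrobp, Fcer1g, Cd52 and Coro1a lay at their lowest value on all 5 of those arrays, while Ctss, Laptm5, Cd68 and Csf1r did not. In such bulk samples, more cells of a type and more RNA of a gene per cell cannot be told apart.

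**Figure D1:**
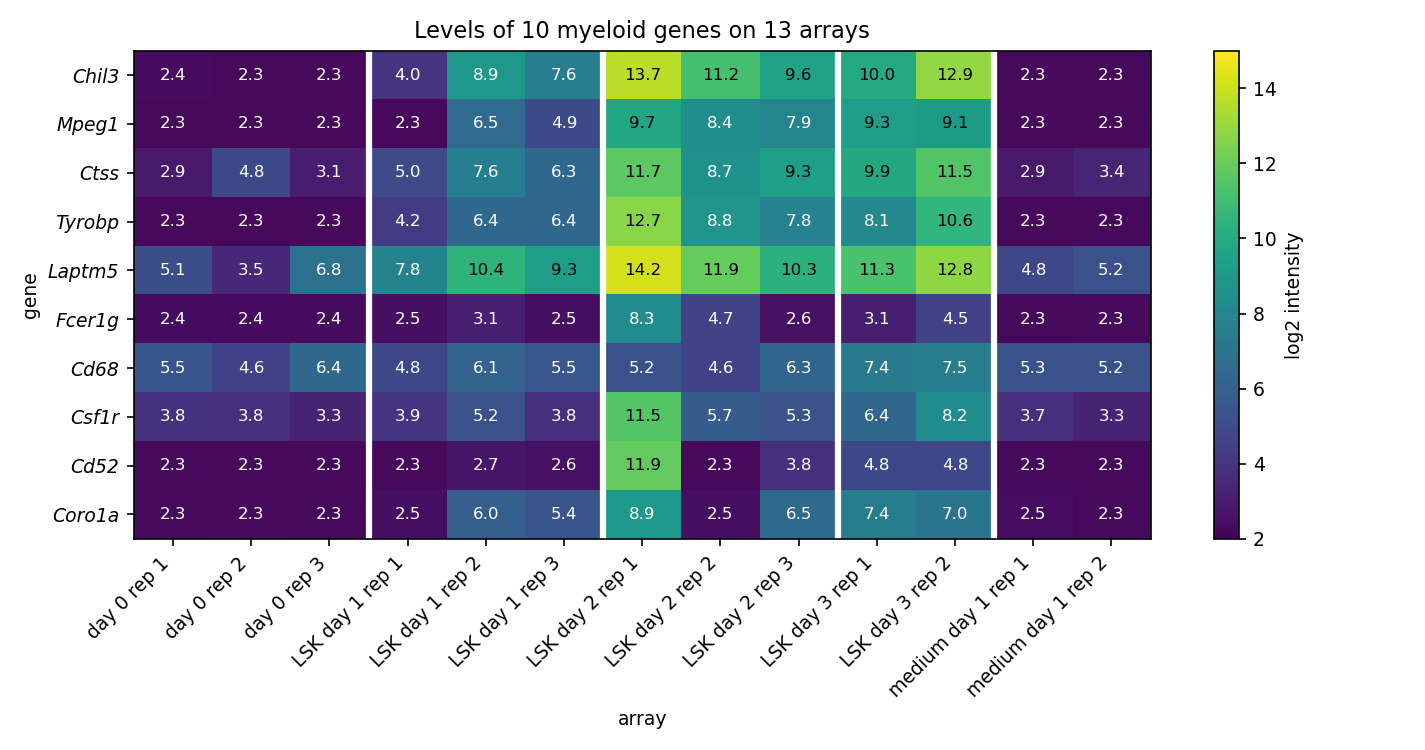
Level of each of the 10 genes (rows) on each of the 13 arrays (columns), as log2 intensity printed in the cell and shown by colour, with white lines between the groups. Co-culture arrays are brighter than day 0 and medium arrays for 9 genes on at least 1 array of each co-culture day, and the row of Cd68 is nearly even up to day 3.

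Among the signalling genes, Tyrobp, the adaptor also known as DAP12, measured 2.28 to 2.29 on the day 0 arrays, 4.24, 6.38 and 6.39 at day 1, 12.70, 8.80 and 7.77 at day 2, 8.12 and 10.58 at day 3 and 2.29 on both medium arrays. All 8 co-culture arrays lay above all 5 others, and all day 2 and day 3 arrays lay above all day 1 arrays. The difference was at least 3.37 ± 1.32 (standard error) at day 1 against the medium control, at least 7.47 ± 1.18 at day 2 against day 0 and at least 7.06 ± 1.32 at day 3 against day 0. The day 2 difference was at least 5.99 ± 0.81 without replicate 1.

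Csf1r, the receptor for Csf1, measured 3.84, 3.77 and 3.32 at day 0, 3.94, 5.22 and 3.79 at day 1, 11.50, 5.73 and 5.31 at day 2, 6.40 and 8.25 at day 3 and 3.73 and 3.32 in the medium control. Day 1 overlapped with day 0, and the day 2 and day 3 arrays lay above all others, with day 2 replicate 1 far above the other arrays. The difference from day 0 was 3.87 ± 1.39 at day 2 and 3.68 ± 1.55 at day 3. The day 2 difference was 1.88 ± 0.58 without replicate 1.

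Fcer1g, the gamma chain shared by Fc receptors and other activating receptors, measured 2.39 to 2.40 at day 0, 2.51, 3.15 and 2.51 at day 1, 8.29, 4.69 and 2.58 at day 2, 3.11 and 4.54 at day 3 and 2.28 and 2.33 in the medium control. Most of its day 2 difference, at least 2.79 ± 1.13 against day 0, came from replicate 1, and it was at least 1.23 ± 0.60 without that array. At day 3 the difference was at least 1.43 ± 1.27, and both day 3 arrays lay within the range of the day 2 arrays.

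Among genes of phagocytosis and the lysosome, Ctss, a cysteine protease of the endosomes of antigen-presenting cells, measured 2.91, 4.84 and 3.06 at day 0, 5.03, 7.61 and 6.34 at day 1, 11.72, 8.69 and 9.33 at day 2, 9.89 and 11.48 at day 3 and 2.91 and 3.36 in the medium control. All co-culture arrays lay above all arrays without LSK cells, and day 1 lay below days 2 and 3. The difference from day 0 was 2.72 ± 0.93 at day 1, 6.31 ± 0.93 at day 2 and 7.08 ± 1.04 at day 3, and 5.40 ± 0.85 at day 2 without replicate 1.

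Mpeg1, which encodes the pore-forming protein perforin-2 of phagocytes, measured 2.28 on all day 0 and medium arrays, 2.28, 6.52 and 4.93 at day 1, 9.72, 8.37 and 7.94 at day 2 and 9.29 and 9.08 at day 3. Day 1 replicate 1 was at the lowest value, so day 1 overlapped with the arrays without LSK cells, while days 2 and 3 did not overlap with day 1. Its differences from day 0 were at least 6.39 ± 0.89 at day 2 and at least 6.90 ± 0.99 at day 3, and at least 5.87 ± 0.96 at day 2 without replicate 1.

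Laptm5, a lysosomal membrane protein of blood cells, measured 5.12, 3.49 and 6.83 at day 0, 7.79, 10.44 and 9.28 at day 1, 14.17, 11.91 and 10.35 at day 2, 11.29 and 12.77 at day 3 and 4.83 and 5.21 in the medium control. All co-culture arrays lay above all arrays without LSK cells, and day 2 overlapped with day 1. The difference from day 0 was 7.0 ± 1.12 at day 2 and 6.88 ± 1.25 at day 3, and 5.98 ± 1.07 at day 2 without replicate 1. The other 4 probe sets of Laptm5 lay between 2.28 and 2.32 on the arrays without LSK cells, and 1 of them stayed at 2.28 on all 13 arrays. On day 2 replicate 3 these 4 also lay between 2.28 and 2.32, where the probe set used here measured 10.35.

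Cd68, a lysosomal membrane glycoprotein used as a macrophage marker, differed least of the 10 from its day 0 level at day 2. It measured 5.47, 4.64 and 6.39 at day 0, 4.84, 6.08 and 5.55 at day 1, 5.22, 4.62 and 6.26 at day 2, 7.41 and 7.45 at day 3 and 5.28 and 5.20 in the medium control. Days 1 and 2 overlapped with day 0, and both day 3 arrays lay above the other 11 arrays. Its difference from day 0 was -0.01 ± 0.53 at day 1, -0.13 ± 0.53 at day 2 and 1.93 ± 0.59 at day 3, and -0.06 ± 0.61 at day 2 without replicate 1. The sign of its day 2 difference was kept in 19 of 23 alternatives.

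The secreted chitinase-like protein Chil3, also known as Ym1 and made by alternatively activated macrophages and by neutrophil precursors of the mouse, had the largest measured difference of the 10 genes at each day. It measured 2.36, 2.28 and 2.29 at day 0, 3.97, 8.92 and 7.58 at day 1, 13.67, 11.15 and 9.55 at day 2, 9.97 and 12.89 at day 3 and 2.28 on both medium arrays. Day 1 replicate 1 stood well below the other 2 day 1 arrays, and every day 2 and day 3 array lay above every day 1 array. The difference was at least 4.54 ± 1.52 at day 1 against the medium control, at least 9.15 ± 1.36 at day 2 and at least 9.12 ± 1.52 at day 3 against day 0. With replicate 1 left out, the day 2 difference was at least 8.04 ± 1.36.

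Of the 2 remaining genes, Coro1a encodes an actin-binding coronin of leukocytes. It measured 2.28, 2.33 and 2.28 at day 0, 2.47, 5.95 and 5.38 at day 1, 8.91, 2.46 and 6.48 at day 2, 7.44 and 7.0 at day 3 and 2.45 and 2.28 in the medium control. Day 1 replicate 1 and day 2 replicate 2 were near the level of the arrays without LSK cells. Its difference from day 0 was at least 3.65 ± 1.42 at day 2, at least 2.17 ± 1.22 without replicate 1, and at least 4.92 ± 1.58 at day 3.

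Cd52 encodes a small glycoprotein anchored to the surface of leukocytes. It measured 2.31 on the day 0 arrays, 2.34, 2.72 and 2.60 at day 1, 11.86, 2.31 and 3.78 at day 2, 4.82 on both day 3 arrays and 2.31 and 2.28 in the medium control. Day 2 replicate 2 was at the day 0 level while replicate 1 was far above every other array. Its day 2 difference of at least 3.67 ± 1.93 against day 0 was at least 0.73 ± 0.35 without replicate 1, and at day 3 it was at least 2.51 ± 2.16.

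**Figure D2:**
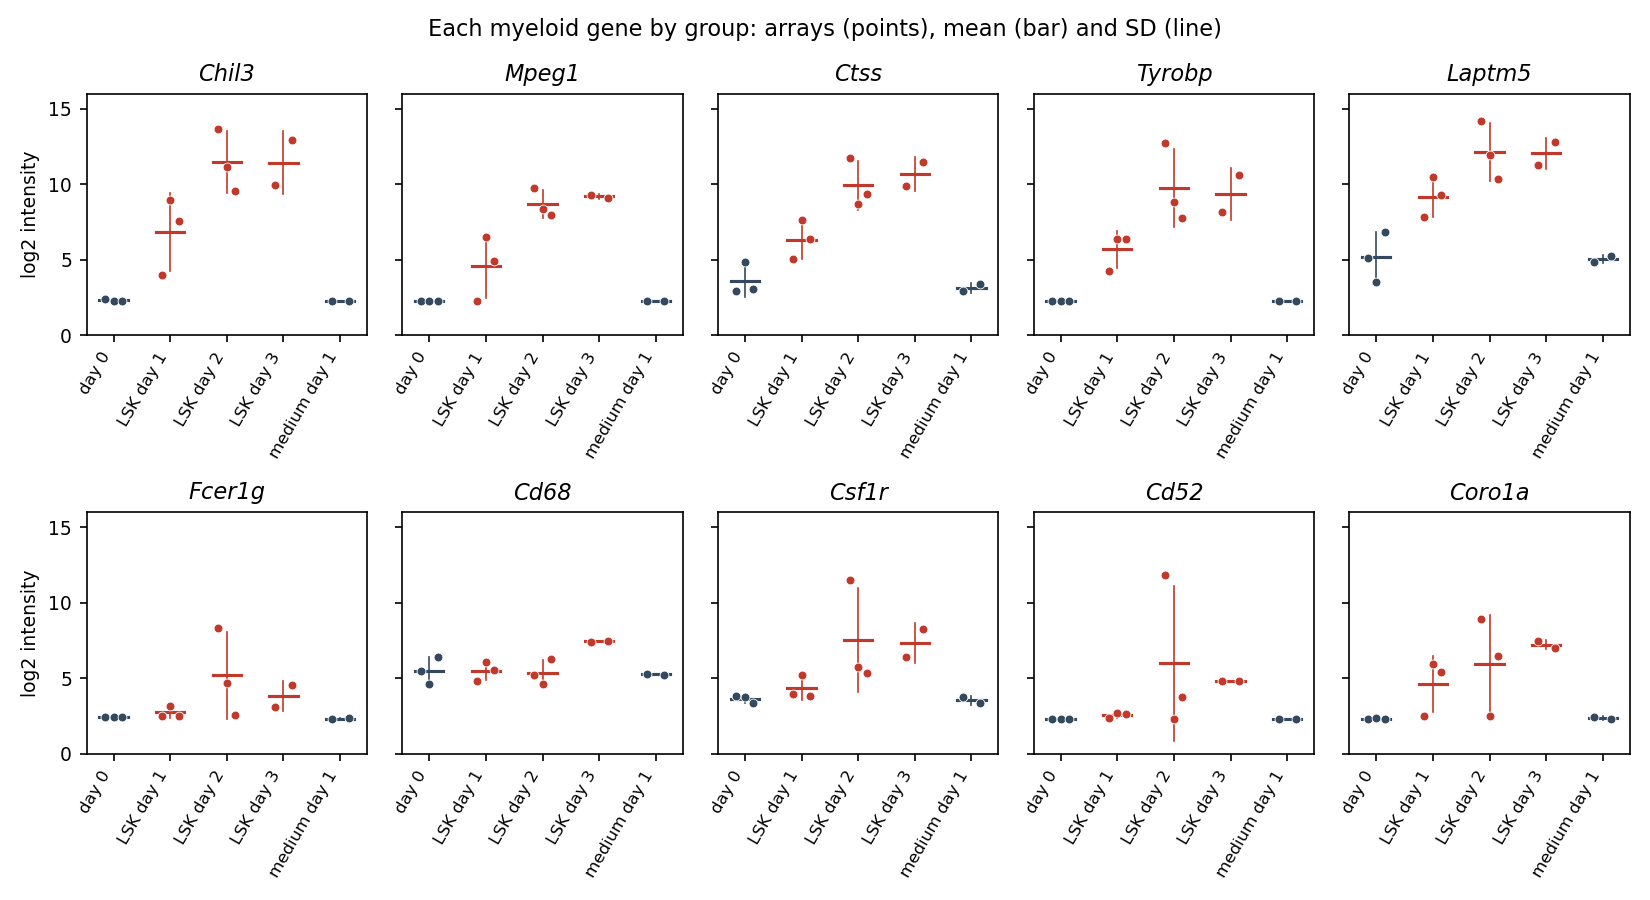
Each panel plots 1 gene as log2 intensity by group, with 1 point per array, a bar for the mean and a line of 1 SD to each side (n = 2 or 3). Day 2 has the widest spread for Ctss, Tyrobp, Laptm5, Fcer1g, Csf1r, Cd52 and Coro1a, and both day 3 arrays of Cd68 lie above all others.

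A limma fit over all 12205 genes, with adjusted p under 0.05 as the threshold, called 5 of the 10 genes higher at day 2 and 5 at day 3, both against day 0. In both cases these were Chil3, Mpeg1, Ctss, Tyrobp and Laptm5. The same rule called 0.639% of all genes higher at day 2 and 0.352% at day 3, and nothing is read from the difference, since the choice of the genes used these contrasts. Against the medium control and against day 0, 0 of the 10 were called at day 1, when 2.15% and 0.828% of all genes were called higher. Between days 2 and 1, between days 3 and 1 and between the medium control and day 0, 0 were called, where the rule called 0.00%, 0.00% and 0.221% of all genes higher. At an unadjusted p under 0.05 in the same limma fit, 5 were higher at day 1 against either control, where 9.04% of all genes were higher against the medium control and 7.50% against day 0. By the same rule 8 were higher at day 2 and 8 at day 3 against day 0, beside 6.83% and 5.87% of all genes, and 6 at day 2 and 6 at day 3 against day 1, beside 1.96% and 1.79%. In the medium control against day 0 it was 0, beside 4.90% of all genes. Chil3, Mpeg1, Ctss, Tyrobp and Csf1r had all day 2 arrays above all day 1 arrays, against 2.50% of all genes. For Csf1r the lowest day 2 level was 5.31 and the highest day 1 level 5.22.

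Groups that did not overlap gave a further count. Against the medium control, 8 of the 10 genes had all day 1 arrays above both controls, where 30.7% of all genes did. Against day 0, this held for 7 genes at day 1, 8 at day 2 and 10 at day 3, where it held for 17.7%, 6.46% and 15.0% of all genes. At day 3 against day 1 it held for 9 genes, where it held for 8.28% of all genes. Between the medium control and day 0 it held for 0 genes upward, where it held for 20.6% of all genes. Downward it held for Fcer1g alone, by 0.10 near the lowest value, where 22.7% of all genes did. Some upward gaps were small too. The lowest day 1 level and the highest medium level were 2.51 and 2.33 for Fcer1g and 3.79 and 3.73 for Csf1r. They were 2.34 and 2.31 for Cd52 and 2.47 and 2.45 for Coro1a. At day 0 the highest levels were 2.40 for Fcer1g, 2.31 for Cd52 and 2.33 for Coro1a. The lowest day 2 levels were 2.58 for Fcer1g and 2.46 for Coro1a. The median difference of the 10 genes was 2.30 at day 1, 5.09 at day 2 and 5.90 at day 3 against day 0, beside medians of 0, -0.29 and 0 over all tested genes. The 3 comparisons share the day 0 arrays.

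The counts of called genes changed when single arrays were left out, as did the share of all genes called higher. At day 2 against day 0, 1 gene was called without day 0 replicate 1, day 0 replicate 2 or day 2 replicate 2. The shares of all genes there were 0.0983%, 0.0574% and 0.115%. Without either medium array or without day 1 replicate 3, 3 were called, beside 0.123% and 0.139% of all genes. At day 3 against day 0, 0 were called without any 1 of the 3 day 0 arrays or without day 3 replicate 2. The shares of all genes there lay between 0.00819% and 0.139%. Without either medium array or day 1 replicate 3, 0 were called as well, beside 0.0164%. Without day 1 replicate 2, 1 was called at day 3, and 3 without day 1 replicate 1, beside 0.0246% and 0.0983%. Without day 2 replicate 1, 8 were called at day 3 and 5 at day 2, where 3.16% and 0.926% of all genes were called higher. At day 1 the counts in that fit were 3 against the medium control and 2 against day 0, beside 7.61% and 4.35% of all genes, so the share of all genes called grew as well. Without day 1 replicate 1 the count against the medium control was 1, beside 0.311% of all genes. Without day 2 replicate 3, 7 genes were called at day 2 against day 0 and 5 at day 2 against day 1, beside 6.02% and 2.36% of all genes. The differences themselves kept their sign for the 5 called genes under all 23 alternatives.

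Within each co-culture day the arrays differed for most of the genes at once. The highest level of 9 genes was on day 2 replicate 1, and that of Cd68 was on day 3 replicate 2. The second highest level of 5 genes was on day 3 replicate 2. Over the 13 arrays the level of each gene correlated with the mean of the other 9 at 0.984 for Tyrobp, 0.963 for Chil3, 0.962 for Ctss, 0.947 for Mpeg1, 0.942 for Laptm5 and 0.917 for Csf1r. The correlation was 0.878 for Coro1a, 0.801 for Fcer1g, 0.758 for Cd52 and 0.384 for Cd68. It was 0.626 for Cd68 and 0.751 to 0.978 for the others without day 2 replicate 1. These are descriptions over arrays that fall into groups, and the arrays share the same processing.

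Of the signals of RNA amount and quality, the poly-A spike-ins separated co-culture from the other arrays, as the mean of the 10 genes did. The Gapdh gap did not separate co-culture from the other arrays. It was 3.69 and 3.82 on day 0 replicates 1 and 2 and 2.43 on day 3 replicate 1. Poly-A spike-in RNAs averaged 5.59 to 8.62 on the day 0 arrays, 10.53, 12.45 and 11.15 at day 1, 14.36, 10.09 and 10.21 at day 2, 11.96 and 13.96 at day 3 and 4.68 and 4.89 in the medium control. Every co-culture array lay above every array without LSK cells in this signal, as in the mean of the 10 genes. Within co-culture the order differed. On day 2 replicates 2 and 3 the spike-ins lay below all day 1 arrays, while the mean of the 10 genes, 6.87 and 6.93, lay above them. Day 2 replicate 1 and day 3 replicate 2 were highest in both, and they also had the widest Gapdh gaps. Their part in the result was not tested. With both arrays left out, 4 genes were called at day 1 against the medium control and 3 against day 0, where 9.23% and 5.60% of all genes were called higher.

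**Figure D3:**
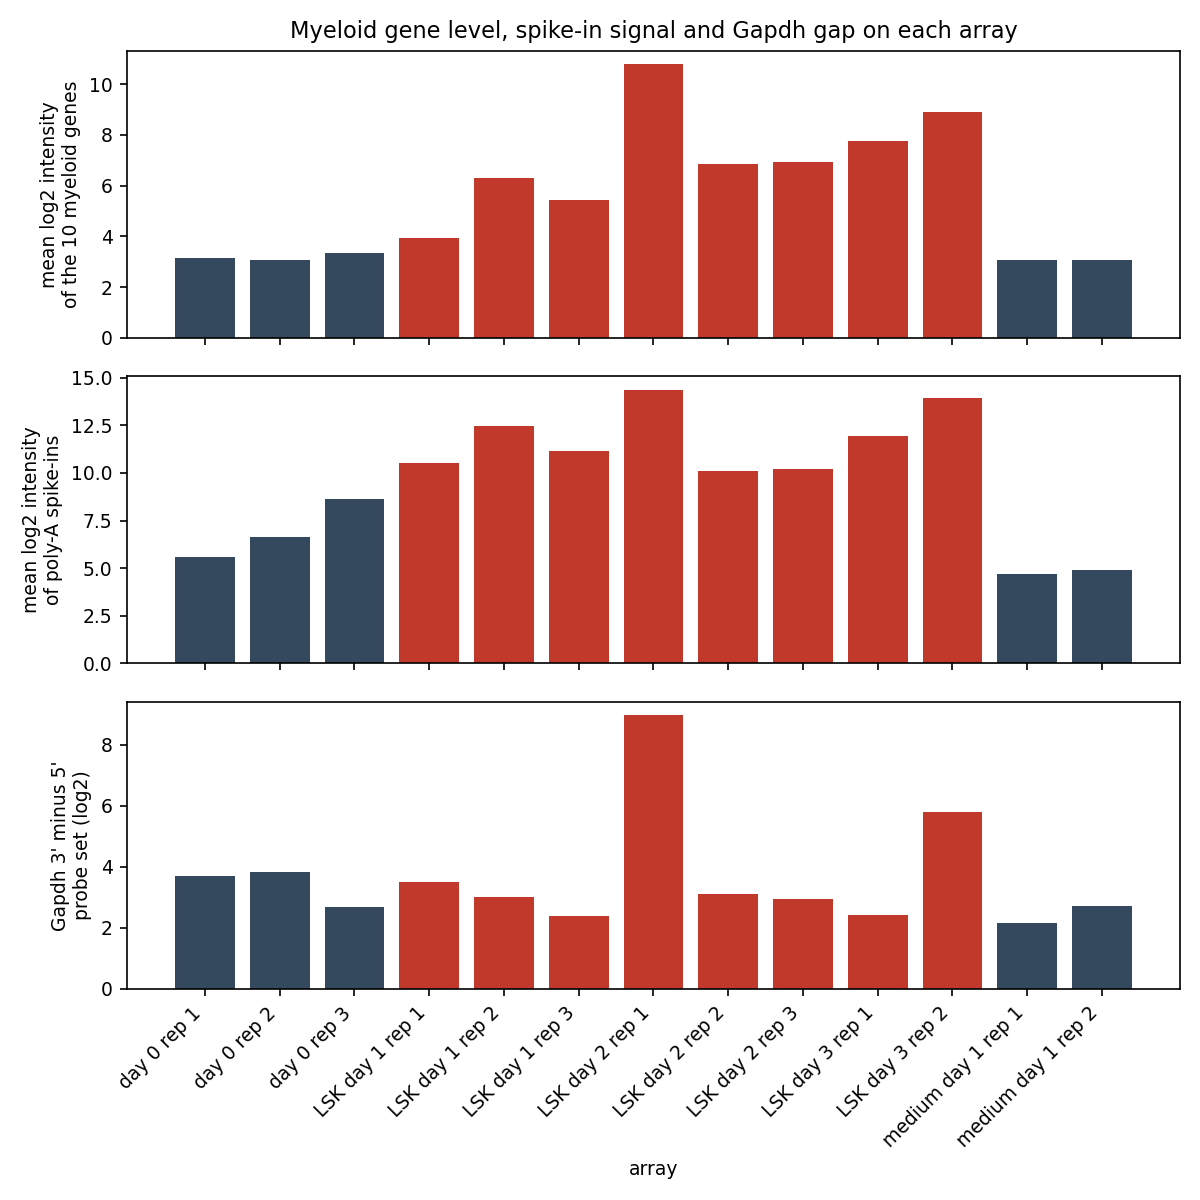
For each array, the bars give the mean log2 intensity of the 10 genes (top), the mean log2 intensity of poly-A spike-in probe sets (middle) and the 3′ minus 5′ difference of Gapdh probe sets in log2 units (bottom), all starting at 0, with co-culture in red. Both upper panels are higher on the 8 co-culture arrays than on the 5 others, and the bottom panel is highest at 8.96 on day 2 replicate 1.

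Genes outside the 10 with the pattern most like their mean were taken as the 8 with the highest Pearson correlation over the 13 arrays. They were Ctsz (0.995), Alox5ap (0.993), Srgn (0.987), Lyz2 (0.985), Clec4d (0.985), Mpo (0.984), AI662270 (0.979) and Pycard (0.976). Ctsz encodes a lysosomal cysteine protease, Alox5ap the protein that presents arachidonic acid to 5-lipoxygenase, Srgn the granule proteoglycan serglycin and Lyz2 the lysozyme of myeloid cells. Of the 8, 7 remained without day 2 replicate 1, and Lyz1 took the place of AI662270. Lyz2 measured 5.52 to 11.48 on co-culture arrays and 4.01 to 4.82 on arrays without LSK cells, and its difference of 4.43 ± 1.01 at day 2 against day 0 missed the threshold (limma, adjusted p = 0.0545), and it was 3.24 ± 0.76 without day 2 replicate 1.

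Csf1, the ligand of Csf1r, lay well above the lowest value on every array, those without LSK cells included. It measured 9.24 to 10.16 at day 0, 9.23 to 9.95 at day 1, 7.21, 9.30 and 9.44 at day 2, 8.44 and 9.78 at day 3 and 10.81 and 10.67 in the medium control, and it did not pass in any comparison. Il34, the other ligand, lay at 2.28 on all 13 arrays. Csf2rb, the shared beta chain of the receptors for Csf2 and related cytokines, measured 8.80, 5.67 and 3.69 at day 2 and 2.28 to 2.33 at day 0, a difference of at least 3.76 ± 1.32 that did not pass, and of at least 2.38 ± 1.14 without replicate 1. In all, 0 of 8 tested genes of the colony stimulating factor axis passed in either direction at days 1, 2 or 3 in the limma fit. At an unadjusted p under 0.05, 0, 1 and 0 were higher against day 0, beside 7.50%, 6.83% and 5.87% of all genes. At day 2, 2 passed as higher without replicate 3, where 6.02% of all genes did. Their median difference from day 0 was 0.68 at day 2 and 0.01 at day 3.

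A list around the ITAM adaptors held receptors, kinases and other signalling genes, not all of them partners of the adaptors. Of its 10 tested genes, 1 was called higher at day 2 against day 0, beside 0.639% of all genes, and 0 were called lower. It was Trem3, a receptor that pairs with Tyrobp, which measured 8.69, 5.85 and 5.12 at day 2 and 2.28 on all day 0 arrays (difference at least 4.27 ± 0.78, limma, adjusted p = 0.0339, and at least 3.20 ± 0.41 without replicate 1). This call was kept in 4 of 13 fits that each left out 1 array, and it was lost without any single array of day 0, the medium control or day 1, or without day 2 replicate 2. Fcgr3, an Fc receptor that needs the Fcer1g chain, measured 9.36, 5.38 and 4.23 at day 2 and 7.13 and 7.27 at day 3, against 2.35 on all day 0 arrays. Its day 3 difference of at least 4.85 ± 1.17 did not pass. Syk, the kinase recruited by both adaptors, measured 6.34 on day 2 replicate 1, 5.85 on day 3 replicate 2 and at most 4.15 on the other arrays, while Trem2 stayed between 2.28 and 2.53 on all 13. With day 2 replicate 3 left out, 5 of the 10 passed as higher at day 2, where 6.02% of all genes did. With replicate 1 left out, 5 of the 10 passed as higher at day 3, where 3.16% of all genes did. They were Trem3 (at least 3.93 ± 0.41), Fcgr3 (at least 4.85 ± 0.40), Plcg2 (3.85 ± 0.66), Vav1 (2.03 ± 0.22) and Fcgr2b (1.81 ± 0.42).

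The label of the 10 genes was compared with a wider list of 24 macrophage and monocyte genes. At the lowest value were 20 of the 24 on all 5 arrays without LSK cells, all 20 of these on the day 1 arrays as well, and 5 on all 13 arrays. Adgre1, which encodes a surface marker of mouse macrophages, measured 2.28 on all day 0, day 1 and medium arrays, 6.80, 4.26 and 2.34 at day 2 and 4.50 and 3.99 at day 3. Itgam, which encodes the integrin CD11b, Marco and Aif1 lay at 2.28 on all 13 arrays. C1qb, a chain of complement C1q, measured 10.66 on day 2 replicate 1 and 6.38 on day 3 replicate 1 but 2.89 or less on the other 11. Of 16 tested genes of this list, 0 passed in any of the 7 comparisons with all arrays (limma). At an unadjusted p under 0.05, 3 were higher and 2 lower at day 2 against day 0, where 6.83% of all genes were higher. At day 2, 3 passed as higher without replicate 3, beside 6.02% of all genes. Without day 2 replicate 1, 4 passed as higher at day 3 against day 0, beside 3.16% of all genes: Lyz2 (5.33 ± 0.76), Msr1 (at least 2.79 ± 0.54), Adgre1 (at least 1.96 ± 0.45) and Clec7a (at least 1.67 ± 0.36). At day 1 several genes of this list were thus at the lowest value where Tyrobp, Ctss and Chil3 were not. Others did not follow this split. Fcer1g, at 2.51 to 3.15, and Cd52, at 2.34 to 2.72, were near their lowest value at day 1. Lyz2 of the list averaged 6.87 at day 1, 4.67 at day 0 and 4.08 in the medium control. The 10 genes are named here by symbol and not as a sign of macrophages.

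**Figure D4:**
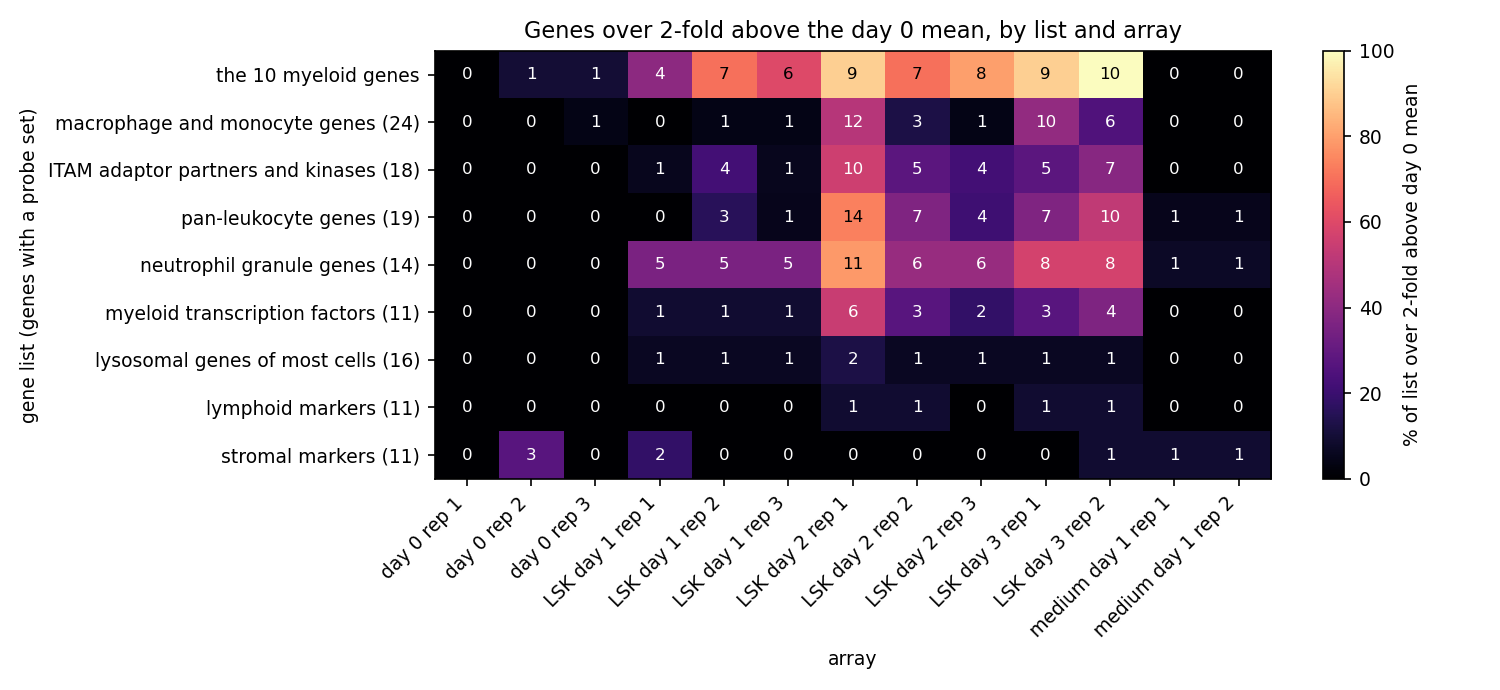
For each gene list (rows, with the number of genes that have a probe set) and each array (columns), the number in the cell counts genes that exceeded their mean day 0 level over 2-fold, and colour gives it as a percent of the list. The 10 genes reach 4, 7 and 6 at day 1, 9, 7 and 8 at day 2 and 9 and 10 at day 3. The macrophage list reaches 0 to 1 at day 1, 12, 3 and 1 at day 2 and 10 and 6 at day 3.

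Genes of neutrophil granules rose in part. At day 2 against day 0, 4 of 12 tested passed as higher, beside 0.639% of all genes, and 0 as lower. They were Ctsg (at least 8.21 ± 0.81, adjusted p = 0.00406), Mpo (at least 6.43 ± 0.83, adjusted p = 0.0114), Prtn3 (6.55 ± 1.02, adjusted p = 0.0218) and Ctsc (4.31 ± 0.87, adjusted p = 0.0425, all limma). Ctsg and Prtn3 encode serine proteases of azurophil granules, Mpo myeloperoxidase and Ctsc the protease that activates such granule proteases. Without day 2 replicate 1 these differences were at least 7.03 ± 0.32 for Ctsg, at least 5.22 ± 0.31 for Mpo, 5.08 ± 0.44 for Prtn3 and 3.06 ± 0.34 for Ctsc. At day 1, Ctsg was the 1 gene of the list that passed, by 4.65 ± 0.91 against the medium control (adjusted p = 0.0272) and by at least 4.96 ± 0.81 against day 0 (adjusted p = 0.0227, both limma). The shares of all genes called higher there were 2.15% and 0.828%. At day 2, the Ctsg call was kept in all 13 fits that each left out 1 array. That of Mpo was lost without day 0 replicate 2 alone. The Prtn3 call was lost without day 0 replicate 1 or 2, either medium array or day 1 replicate 2 or 3, and the Ctsc call was kept only without day 2 replicate 1 or 3. At day 3, 3 of the 12 passed, beside 0.352% of all genes. Without day 2 replicate 1 it was 8, beside 3.16%, and without day 0 replicate 2 it was 0, beside 0.00819%. Whether this list differs from the macrophage list was not tested.

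Genes of leukocytes in general gave 1 call of 13 at day 2 against day 0, beside 0.639% of all genes called higher. It was Ptprc, which encodes CD45 (at least 6.07 ± 1.15, limma, adjusted p = 0.0371, and at least 4.79 ± 0.93 without replicate 1). The call was lost without any 1 array of day 0, the medium control or day 1, or without day 2 replicate 2. Of the 13, 6 passed at day 2 without day 2 replicate 3, beside 6.02% of all genes, and without day 2 replicate 1, 6 passed at day 3, beside 3.16%. Among 11 transcription factors of myeloid cells, Spi1 was above its lowest value on day 2 replicate 1 alone, at 4.48. Irf8, a factor of monocyte development, measured 9.39 on that array, 3.66 on day 2 replicate 3 and 5.18 on day 3 replicate 2, and 2.31 or less elsewhere. Of the 10 factors tested, 0 passed at days 2 or 3 against day 0 (limma). At an unadjusted p under 0.05, 3 and 1 were higher, beside 6.83% and 5.87% of all genes. Without day 2 replicate 3, 3 passed at day 2, beside 6.02% of all genes, and without day 3 replicate 1, 1 passed at day 3, beside 1.30%. At day 1 against the medium control, 1 factor passed as higher, where 2.15% of all genes did. It was Runx1, a factor of blood stem and progenitor cells, which measured 8.40, 9.55 and 8.96 at day 1 and 5.53 and 6.01 in the medium control (difference 3.21 ± 0.66, limma, adjusted p = 0.0307), and the call was lost without any 1 array of either group. Runx1 measured 6.69 to 7.26 at day 0. Kit, a marker used to sort LSK cells, lay between 2.28 and 2.38 on every array.

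The lysosomal genes among the 10 stood beside lysosomal genes that most cells use. Of 16 such genes tested, 1 was called higher and 1 lower at day 2 against day 0, where 0.639% of all genes were called higher. Ctsz was higher by 5.82 ± 1.16 (limma, adjusted p = 0.0422), or by 4.28 ± 0.69 without replicate 1, and Ctsb, a cathepsin of most cells, was lower by 1.15 ± 0.23 (difference -1.15, adjusted p = 0.0425), with a difference of -0.98 ± 0.22 without replicate 1. The Ctsz call was kept in 2 of 13 fits that each left out 1 array and the Ctsb call in 1. The median difference of the 16 was -1.04 at day 2 and -0.04 at day 3. As differences on these days, Ctss measured 6.31 and 7.08, Laptm5 7.0 and 6.88 and Cd68 -0.13 and 1.93. Of 11 markers of the stroma, 9 had a level over 5 on each day 0 array. Of the same 11, 7 on day 2 replicate 1, 8 on replicate 2 and 4 on replicate 3 lay over 2-fold under their mean at day 0, as did 4 and 5 on the day 3 arrays and 3 and 2 on the medium arrays. Col1a1, a collagen chain, measured 6.43, 7.58 and 8.02 at day 2 against 8.62 to 9.85 at day 0. Their part in the result was not tested.

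Other lists gave few calls. In the limma fit, 0 of 3 genes of the chitinase-like family, 0 of 7 stem and progenitor markers, 0 of 3 lymphoid, 0 of 3 mast cell, 0 of 6 erythroid and megakaryocyte and 0 of 1 endothelial markers passed at day 2 or day 3 against day 0. The rule called 0.639% of all genes higher at day 2 and 0.352% at day 3. At an unadjusted p under 0.05, 1 stem and progenitor marker was higher and 2 were lower on each day, 2 erythroid and megakaryocyte markers were higher at day 2 and 1 at day 3, and 0 genes of the other 4 lists were higher or lower. By that rule 6.83% of all genes were higher at day 2 and 5.87% at day 3. With 1 array left out, 1 gene was called higher at day 2 in the chitinase-like and in the stem and progenitor list without day 2 replicate 3, in the erythroid list without day 2 replicate 2 and in the endothelial list without day 2 replicate 1. At day 3 this held for the stem and progenitor list without day 2 replicate 1, for the erythroid list without day 2 replicate 1 or 2 and for the lymphoid list without day 3 replicate 1. At day 1 against the medium control, 1 of 3 lymphoid and 1 of 6 erythroid and megakaryocyte markers passed as higher, beside 2.15% of all genes. Vpreb1, part of the surrogate light chain of B cell precursors, differed by 2.19 ± 0.46 (limma, adjusted p = 0.0326), and Itga2b, the integrin chain CD41, by 2.79 ± 0.37 (adjusted p = 0.00924, limma). The Vpreb1 call was lost without any 1 array of either group and the Itga2b call without either medium array. Against day 0, neither passed at day 1. Vpreb1 averaged 4.66 at day 1, 2.47 in the medium control and 3.96 at day 0, and Itga2b 8.27, 5.47 and 7.51. Both were thus lower in the medium control than at day 0. Of 3 epithelial markers, Krt19, a keratin, fell by 2.20 ± 0.44 at day 2 (limma, adjusted p = 0.0422), a call kept in 3 of 13 fits that each left out 1 array, with a difference of -2.27 ± 0.50 without replicate 1. Of 9 stromal markers tested, Dcn, the matrix proteoglycan decorin, fell by 2.50 ± 0.20 at day 2 (adjusted p = 0.00145, or -2.57 ± 0.20 without replicate 1) and by 2.52 ± 0.22 at day 3 (adjusted p = 0.00295, both limma), and these calls were kept in all 13 such fits. Dcn was also lower in the medium control than at day 0, by 2.34 ± 0.22 (difference -2.34, limma, adjusted p = 0.00321).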

How the data were processed

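Gene expression was measured on Affymetrix mouse arrays in 13 samples of UG26-1B6 stroma. The deposited values are log2 intensities of 45101 probe sets, from 2.28 to 15.7, and the submitters' processing notes list RMA and GCRMA with no version, so the method behind these values is not given in full. The authors' table was used without further scaling, and scanner files were not used here. Probe sets were named through the platform annotation, in which 34945 had 1 symbol, 932 had several and 9211 had none, and 64 were controls. A probe set entered the fit if it exceeded the pooled median of 2.38 on at least 2 arrays. Each gene kept its probe set with the highest mean, which left 12205 genes. A shared lowest value holds many probe sets, so differences from it are lower bounds; the tolerance of 0.25 and the limit of 4 on such a lowest value were chosen after seeing the data. The number of arrays limits the precision.

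Arrays were grouped by title. All 13 were fitted together, with 1 mean for each group, in limma 3.58.1 (R 4.3.3; lmFit, contrasts, eBayes), and p-values were adjusted by Benjamini-Hochberg over the genes of each of 7 comparisons. Differences are group means subtracted on the log2 scale ± standard error. The fit was tested on simulated data. Promoter letters were searched in Python 3.11.15, and figures were drawn with it.

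The 10 genes, the 15 gene lists and the tests were chosen with earlier results of these data known. All 10 genes are named. From a list, up to 4 genes with the largest difference past the threshold at day 2 against day 0 could be named, or up to 3 with the highest level where none passed, and a fixed set that included Csf1, Il34, Spi1, Irf8, Ptprc, Kit, Mpo, Ctsg, Lyz2, Adgre1, Itgam, Trem2, Syk, Fcgr3 and Fcgr2b. Marco, Aif1, C1qb, Csf2rb, Plcg2, Vav1, Msr1, Clec7a, Runx1, Vpreb1 and Itga2b were named after their values were seen. Lists for stem and progenitor, lymphoid, mast, erythroid and megakaryocyte, endothelial, epithelial and stromal markers and for the chitinase-like family were fitted too. Alternatives were no filter, quantile normalization, other choices of probe set, another variance model, array weights, the compared groups alone, the replicate number as a block and each array left out.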

Additional observations from a re-analysis of the deposited data

Results flagged for a closer look

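Of 9 probe sets of the 10 genes that the comparisons did not use, 6 lay over 1 log2 unit above all arrays without LSK cells on at least 1 co-culture array. Except for 1 of Coro1a, this held on only 1 or 2 of the 8 co-culture arrays. These were day 2 replicate 1 and day 3 replicate 2, the arrays with the widest Gapdh gaps. A second probe set of Coro1a reached 10.26 on day 2 replicate 1, with 2.81 as its highest level without LSK cells, and lay over 1 log2 unit above that level on 5 of the 8 co-culture arrays. Of the other Csf1r probe sets, 1 reached 8.35 on day 2 replicate 1 and another 4.90 on day 3 replicate 2, against at most 2.44 and 2.47 without LSK cells, and only the first was raised on day 2 replicate 1. Of the other Laptm5 probe sets, 1 reached 6.37 and another 4.43, both on day 2 replicate 1, against at most 2.32 and 2.28 without LSK cells. A probe set shared by Chil3 and its near copy Chil4 reached 6.19 on day 3 replicate 2, against at most 2.34 without LSK cells, and its signal cannot be assigned to either gene. The other 3, 1 of Coro1a and 2 of Laptm5, lay at most 1 log2 unit above those arrays, with highest levels of 3.03 for Coro1a and 3.06 and 2.28 for Laptm5, and the Coro1a probe set was at 2.28 on day 2 replicate 1.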

How the results depend on the processing

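Counts of the 10 genes past the threshold moved with the fit. At day 3 against day 0, where 5 passed, 2 passed with no filter, 3 after centring on the probe sets measured on all arrays, and 4 after quantile normalization. The shares of all genes called higher were 0.242%, 0.0901% and 0.205%, against 0.352% in the main fit. With array weights, 6 passed at day 1 against either control, where 25.1% of all genes were called higher against the medium control and 12.6% against day 0, and 2 at day 3, beside 0.631%. With only the 2 groups compared in the fit, the counts were 2 at day 1 against the medium control, beside 17.9% of all genes, and 1 at day 1, 0 at day 2 and 3 at day 3 against day 0, beside 5.95%, 0.00% and 0.172%. Leaving out each array in turn gave 0 to 3 at day 1 against the medium control and 0 to 2 against day 0. It gave 1 to 7 at day 2 and 0 to 8 at day 3 against day 0, and 0 to 5 at day 2 against day 1. It gave 0 for day 3 against day 1 and for the medium control against day 0. In the same order, the shares of all genes called higher were 0.00% to 7.61% and 0.0246% to 4.35% at day 1. They were 0.0574% to 6.02%, 0.00819% to 3.16% and 0.00% to 2.36% for the next 3 comparisons. For the last 2 they were at most 0.811% and 0.778%. Without day 2 replicate 1 and day 3 replicate 2 together, 4 passed at day 1 against the medium control and 3 against day 0, beside 9.23% and 5.60% of all genes. That choice and the centring were added after seeing the data. With the replicate number as a block, 0 passed at day 2 and 0 at day 3 against day 0, beside 0.0574% and 0.00819% of all genes. Arrays of the same number correlated at -0.371 to 0.261 in their deviations from the group means. In a group of 2 arrays the deviations mirror each other, so these values cannot decide whether the numbers pair the samples. The cause of these changes was not tested. Over the 10 genes, the 7 comparisons and the alternatives run, no called difference changed sign. Lower bounds at the lowest value limit every difference of Chil3, Mpeg1, Tyrobp, Fcer1g, Cd52 and Coro1a from stroma alone, and Laptm5 depends on its probe set: its day 2 difference was 2.41 at the lowest and 7.89 at the highest over 23 alternatives.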
